A study of Mus musculus with 11 samples.

Results

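The CC chemokine genes *Ccl2*, *Ccl7*, *Ccl9*, and *Ccl20* were followed in lymphatic endothelial cells (LECs). They were chosen by name, as the CC chemokine ligands among the genes with values for LECs, and make up 4 of the 191 genes listed for these cells and 4 of the 458 genes listed for LECs or for the cancer cells grown with them. All 4 were higher in LECs sorted out of a co-culture with cancer cells than in LECs grown alone. The mean level rose 2.90-fold for *Ccl2*, 6.72-fold for *Ccl7*, 2.72-fold for *Ccl9*, and 24.8-fold for *Ccl20*. For *Ccl20* that ratio of means rested on single libraries, and was 13.2 without LEC-sorted replicate 2 and 63.0 without LEC control replicate 2. *Ccl2* and *Ccl7* were present at high levels and *Ccl9* and *Ccl20* at far lower ones, measured as TPM (transcript abundance corrected for transcript length and scaled to a fixed total in each library).

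The LECs are conditionally immortal mouse cells that carry a transgene for a thermolabile SV40 large T antigen under the H-2Kb promoter, which IFN-γ activates, and clones of them were used interchangeably. The LEC control group (n = 3) was grown as single cultures, and the LEC-sorted group (n = 3) was isolated by FACS with an antibody to CD31 after 24 h of co-culture with HaCa4 cells, a mouse skin squamous cell carcinoma line that carried the dye CFSE. Both groups carry the transgene, and the labels do not say which clone gave a library. Co-culture and its sorting cannot be told apart where the control cells did not pass through a sorter, which the sources used here do not state.

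Chemokines are small secreted proteins that bind glycosaminoglycans on cell surfaces and matrix and direct the migration of cells that carry the matching G protein-coupled receptors. CC chemokines are named for adjacent cysteines near the start of the mature protein. Ligands of CCR2 draw monocytes out of the blood and into tissue, ligands of CCR1 act on monocytes and other myeloid cells, and CCL20 draws cells with CCR6, such as Th17 cells, B cells, and immature dendritic cells. Lymphatic endothelium is best known for CCL21, the CCR7 ligand that guides dendritic cells and lymphocytes into lymphatic vessels, and it can also make inflammatory chemokines when stimulated.

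Gene positions are those of RefSeq on GRCm38.p6, to which the reads had been aligned. *Ccl2* (Entrez 20296) lies on the plus strand of chromosome 11, from 82035577 to 82037452, and *Ccl7* (Entrez 20306) on the same strand from 82045712 to 82047525, only 8260 bases further on. *Ccl9* (Entrez 20308) lies on the minus strand of chromosome 11, from 83572917 to 83578636, in a second group of CC chemokine genes 1525392 bases beyond *Ccl7*. *Ccl20* (Entrez 20297) lies apart from them on the plus strand of chromosome 1, from 83116766 to 83119167. *Ccl2* lies within the bounds of *Gm17268*, a protein-coding gene annotated on the opposite strand, and whether the counting used the strand is not given in the sources used here. The stretch of 60 spliced coding bases around the adjacent cysteine codons, which give the family its name, is shown for each gene from the GENCODE M21 transcripts, with those codons in capitals.
Ccl2: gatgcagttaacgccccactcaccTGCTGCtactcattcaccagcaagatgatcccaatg
Ccl7: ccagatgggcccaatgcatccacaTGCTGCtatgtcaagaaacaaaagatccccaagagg
Ccl9: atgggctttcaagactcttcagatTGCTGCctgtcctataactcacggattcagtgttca
Ccl20: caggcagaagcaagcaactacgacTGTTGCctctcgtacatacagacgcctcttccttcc
The capitals lie in exon 2 of *Ccl2* (chr11:82036506-82036511), exon 2 of *Ccl7* (chr11:82046538-82046543), exon 3 of *Ccl9* (chr11:83575926-83575931), and exon 2 of *Ccl20* (chr1:83117813-83117818). *Ccl20* spells the first cysteine as TGT and the other genes as TGC. Since related genes can share reads, the longest run of identical coding bases with another CC chemokine gene was found for each member. It was 20 bases for *Ccl2* (with *Ccl11*), 17 for *Ccl7* (with *Ccl8*), 23 for *Ccl9* (with *Ccl6*), and 12 for *Ccl20* (with *Ccl11*), and it was 11 between *Ccl2* and *Ccl7*. No run of 38 or more bases was shared by *Ccl2*, *Ccl7*, or *Ccl20* with the transcripts of any other gene. The *Ccl9* transcript shared such runs with transcripts of 1187 other genes, all between its bases 1445 and 1606 and outside its coding part.

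The promoter windows of *Ccl9* and *Ccl20* are shown because the listed NF-κB genes moved in the same direction as the members, as given further on. So did most listed genes (127 of 191), and a link was not tested. The windows are credited to RefSeq (GRCm38.p6), run from 250 bases before to 50 bases after the gene start, and are written on the strand of the gene. *Ccl2* and *Ccl7* were not matched in that table. Capitals mark TATAAA, the AP-1 motif TGANTCA, and the NF-κB consensus, each searched on both strands.
Ccl9 (chr11:83578587-83578886, minus strand): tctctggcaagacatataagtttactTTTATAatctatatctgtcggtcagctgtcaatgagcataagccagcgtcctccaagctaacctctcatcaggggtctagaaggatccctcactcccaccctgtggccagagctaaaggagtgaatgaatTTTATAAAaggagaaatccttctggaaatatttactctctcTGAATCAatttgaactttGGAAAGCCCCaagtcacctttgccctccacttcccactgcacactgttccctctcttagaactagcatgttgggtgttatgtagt
Ccl20 (chr1:83116516-83116815, plus strand): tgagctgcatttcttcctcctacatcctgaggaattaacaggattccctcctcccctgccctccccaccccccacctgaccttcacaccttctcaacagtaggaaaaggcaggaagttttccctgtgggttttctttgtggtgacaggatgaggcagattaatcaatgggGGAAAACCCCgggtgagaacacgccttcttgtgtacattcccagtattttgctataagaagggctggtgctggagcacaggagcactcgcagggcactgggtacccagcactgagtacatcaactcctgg
The NF-κB consensus matched at bases -35 to -26 of *Ccl9* and at bases -80 to -71 of *Ccl20*, in both cases on the opposite strand. The AP-1 motif matched in *Ccl9* at bases -53 to -47, and TATAAA matched there at 3 places, of which 2 overlap. The C/EBP motif TTGCNNAA was also searched and matched in neither window. Of the 32851 promoters in the table, 13.6% held TATAAA, 7.81% TGANTCA, 10.8% TTGCNNAA, and 8.46% the NF-κB consensus. Counted by gene, that consensus was in 25.8% of the listed higher genes with a window and 22.0% of the listed lower ones. It was thus common among listed genes of either direction. A match of letters is a description of the sequence and not evidence of binding.

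The values the authors deposited are TPM rounded to 2 decimals, so the read depth of each library is unknown and precision rests on the spread between replicates. The listed genes added up to between 2.51% and 3.85% of all TPM in the LEC libraries. LEC-sorted was compared with LEC control by limma on log2(TPM + 1), with p-values adjusted by the Benjamini-Hochberg method over all 191 genes and thresholds of 0.5 for the absolute log2 fold change and 0.05 for the adjusted p. Of the listed genes, 184 (96.3%) passed both thresholds, 122 of them (63.9%) higher in LEC-sorted, and the groups did not overlap in 185 genes (96.9%), of which 122 (63.9%) were higher. The study chose the listed genes on these same libraries, so the passing of all 4 members is near this background and is not independent evidence of their direction. The fit also drew its variance trend from these selected genes only. The fold changes, SEs, intervals, and adjusted p-values below therefore describe this selection, and may overstate both size and precision. Setting the median of the listed genes equal in all libraries (median scaling) moved the log2 fold changes by a median of -0.61, and the value after that scaling is given beside each member's own. In bulk samples, more cells that express a gene cannot be told apart from more RNA of it per cell.

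Of the lymphatic endothelial markers, 2 of 12 are listed for LECs, and both were detected in every library. *Pdpn*, the glycoprotein podoplanin, averaged 144 ± 42.3 TPM in LEC control and 352 ± 101 in LEC-sorted (SD, n = 3), and *Kdr*, the receptor VEGFR-2, 152 ± 17.8 and 101 ± 14.4. They moved in opposite directions, with log2 fold changes of 1.28 and -0.59. After median scaling these were 0.66 (limma adjusted p = 0.131) and -1.21 (adjusted p = 0.000727). The paper also labels podoplanin in an immortalized mouse keratinocyte line, so *Pdpn* does not mark lymphatic cells alone. None of the 12 leukocyte markers is listed. Of the 14 keratinocyte markers, *Krt8* is listed, at 0 TPM in each LEC control library and at 0.19, 2.19, and 0.89 TPM in LEC-sorted replicates 1 to 3. These are between 0.0572% and 0.659% of its mean in HaCa4 control, where it was at 284 and 380 TPM. In the co-cultured HaCa4-sorted libraries *Krt8* was lower, at 220, 205, and 238 TPM, so the percentages against that source are larger. These percentages rest on 1 marker. Of the 12 lymphatic markers, 6 are listed for HaCa4 (*Lyve1*, *Flt4*, *Pecam1*, *Cdh5*, *Kdr*, and *Tie1*). The paper reports *Kdr* and *Flt4* as higher in HaCa4 after co-culture, and whether the sort left mixed cells was not tested. The members are not among the 290 genes listed for HaCa4, so their level in the cancer cells was not analysed here. The part of any HaCa4 RNA in the LEC-sorted values was not tested.

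*Ccl2* and *Ccl7* encode MCP-1 and MCP-3, both CCR2 ligands that draw monocytes. *Ccl2* was at 1319, 2250, and 1753 TPM in LEC control replicates 1 to 3 and at 4332, 6413, and 4665 TPM in LEC-sorted replicates 1 to 3. Every sorted library was above every control library, the lowest sorted value being 1.93 times the highest control value. The mean went from 1774 ± 466 to 5137 ± 1118 TPM (SD, n = 3), and the fitted log2(TPM + 1) change was 1.55 (SE 0.27, 95% interval 0.92 to 2.17, limma adjusted p = 0.00321). After median scaling it was 0.92 (adjusted p = 0.00499). By mean level, *Ccl2* stood at place 3 among the 191 listed genes in LEC control and at place 1 in LEC-sorted, a place among selected genes and not in the whole transcriptome.

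*Ccl7* was at 270, 502, and 313 TPM in LEC control and at 3978, 2419, and 901 TPM in LEC-sorted replicates 1 to 3. The groups did not overlap, but the sorted libraries lay far apart, with replicate 1 at 4.42 times replicate 3. The mean went from 362 ± 123 to 2433 ± 1539 TPM (SD, n = 3), and the coefficient of variation from 34.1% to 63.3%. The log2 fold change was 2.55 (SE 0.52, 95% interval 1.33 to 3.78, limma adjusted p = 0.00527) and 1.93 after median scaling (adjusted p = 0.0158). Without LEC-sorted replicate 1 the log2 fold change was 2.08, and without LEC-sorted replicate 3 it was 3.15, so the size of the rise depended on which library was included while its call did not. In mean level, *Ccl7* moved from place 12 to place 4 among the listed genes.

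*Ccl9* encodes a CCR1 ligand, also known as MIP-1γ, that acts on myeloid cells and osteoclast precursors. It was at 3.13, 3.29, and 2.96 TPM in LEC control and at 7.85, 9.45, and 8.18 TPM in LEC-sorted replicates 1 to 3. The libraries of each group lay close together and the groups did not overlap. The mean went from 3.13 ± 0.17 to 8.49 ± 0.84 TPM (SD, n = 3), with coefficients of variation of 5.28% and 9.95%. The log2 fold change was 1.20 (SE 0.21, 95% interval 0.70 to 1.70, limma adjusted p = 0.0038). On the log2(TPM + 1) scale this is 2.30-fold, less than the 2.72-fold ratio of the means, since the pseudocount weighs on low values. With a pseudocount of 5 it was 0.73, and after median scaling it was 0.68 (adjusted p = 0.0174). Among the listed genes it was one of the lower ones in both groups, at place 152 by mean in LEC control and 153 in LEC-sorted.

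*Ccl20* encodes MIP-3α, the CCR6 ligand. It was at 1.29, 4.62, and 0.35 TPM in LEC control and at 38.83, 100.1, and 16.17 TPM in LEC-sorted replicates 1 to 3. The groups did not overlap, the lowest sorted value being 3.50 times the highest control value, although the control libraries differed among themselves by 13.2-fold and the sorted ones by 6.19-fold. The mean went from 2.09 ± 2.24 to 51.7 ± 43.4 TPM (SD, n = 3), and the fitted log2(TPM + 1) change was 3.99 (SE 0.73, 95% interval 2.28 to 5.69, limma adjusted p = 0.00381). On that scale the change is 15.8-fold, less than the 24.8-fold ratio of the means. The fitted log2 value was 3.34 without LEC-sorted replicate 2, 4.61 without LEC-sorted replicate 3, and 4.54 without LEC control replicate 2. It was 3.52 after median scaling (adjusted p = 0.00384). *Ccl20* had the largest log2 fold change of the members and was at place 10 of the 191 listed genes by that measure, against place 15 for *Ccl7*, 38 for *Ccl2*, and 57 for *Ccl9*. In mean level it moved from place 160 to place 81.

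**Figure D1:**
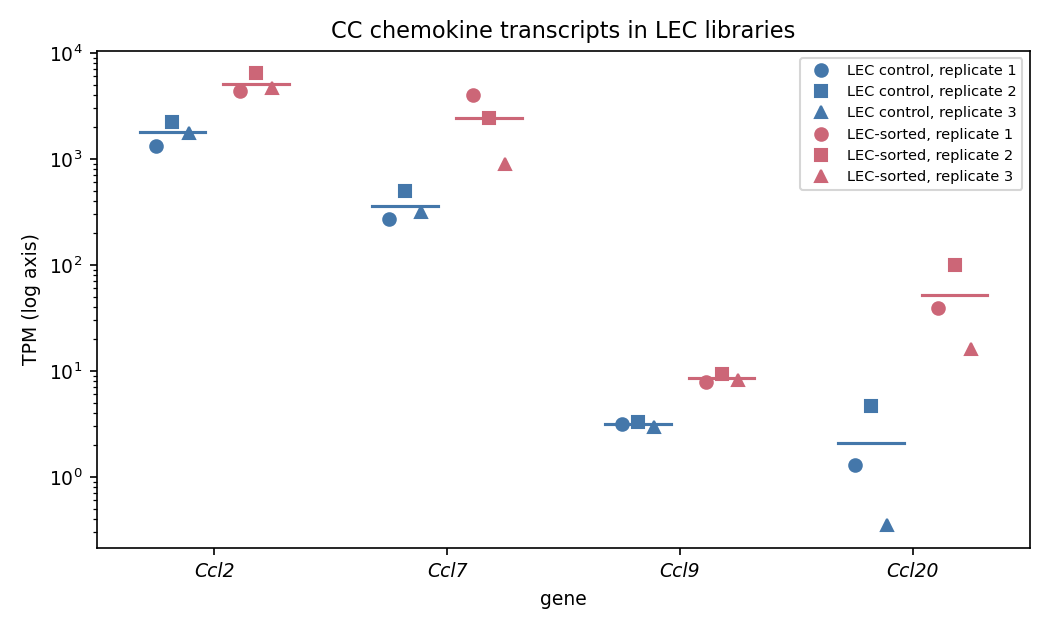
TPM of *Ccl2*, *Ccl7*, *Ccl9*, and *Ccl20* in each LEC control and LEC-sorted library (points, n = 3 per group) on a log axis, with the mean of each group. In each gene the sorted libraries lie above the control libraries, those of *Ccl9* close together (7.85 to 9.45 TPM) and those of *Ccl7* spread from 901 to 3978 TPM.

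Within LEC control the order of the levels was *Ccl2*, then *Ccl7*, then *Ccl9* and *Ccl20*. *Ccl2* lay above *Ccl7* in every library, and both lay far above the other members. *Ccl9* (2.96 to 3.29 TPM) fell within the range of *Ccl20* (0.35 to 4.62 TPM), so those neighbours did not differ beyond their spread. In LEC-sorted the order was *Ccl2* (4332 to 6413 TPM), *Ccl7* (901 to 3978), *Ccl20* (16.17 to 100.1), and *Ccl9* (7.85 to 9.45), with no overlap between neighbours.

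The summed TPM of the 4 genes was 1594, 2761, and 2069 TPM in LEC control and 8357, 8941, and 5589 TPM in LEC-sorted replicates 1 to 3. This was 0.159%, 0.276%, and 0.207% of all TPM in the control libraries and 0.836%, 0.894%, and 0.559% in the sorted ones. The mean sum went from 2141 ± 587 to 7629 ± 1791 TPM (SD, n = 3), or 3.56-fold. The increase of 5488 TPM was 37.4% of the summed increases in mean TPM of the 127 listed genes that were higher (14661 TPM), which the other 64 listed genes offset by -7717 TPM. Without the members, the total of the listed genes was 25078 ± 2254 TPM in LEC control and 26534 ± 2721 TPM in LEC-sorted, a difference within the spread between libraries, and without LEC-sorted replicate 2 the sorted mean was 25009 TPM. *Ccl2* made up between 81.5% and 84.7% of the sum in the control libraries, but 51.8%, 71.7%, and 83.5% in LEC-sorted replicates 1 to 3. The share of *Ccl7* was 47.6%, 27.1%, and 16.1% in those sorted libraries, so replicate 1 held the 2 genes in almost equal amount and replicate 3 held them in the proportion of the controls.

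**Figure D2:**
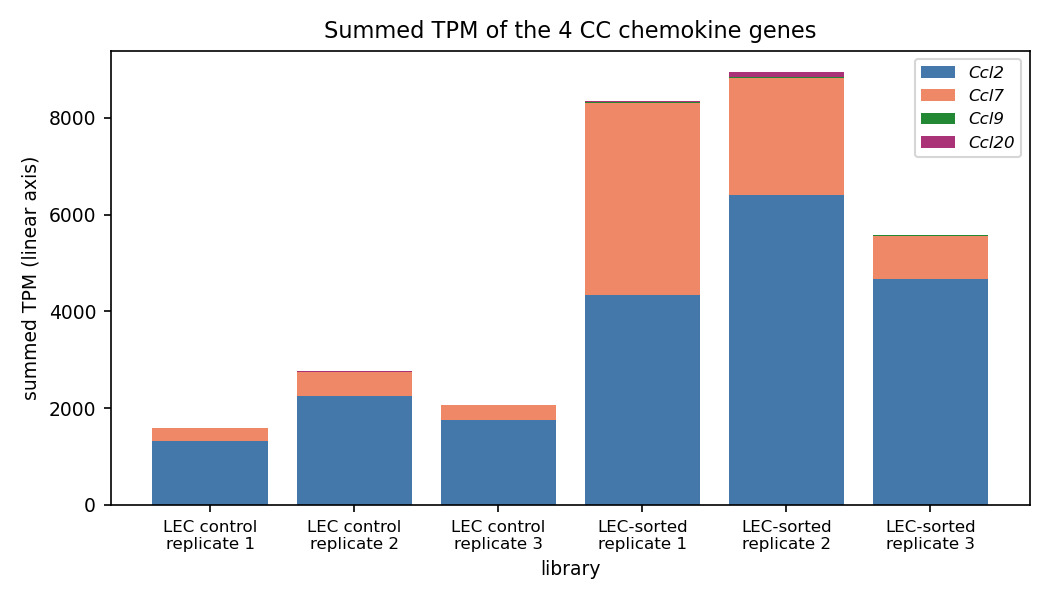
TPM of the 4 genes stacked for each LEC library, in TPM on a linear axis from 0. The sorted bars reach 5589 to 8941 TPM against 1594 to 2761 TPM in the controls, and *Ccl7* takes 47.6% of the bar in LEC-sorted replicate 1 and 16.1% in replicate 3.

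Ratios between members were compared within each library for all 6 pairs by a two-sided exact permutation test, whose smallest p with 3 against 3 libraries is 0.1. The differences of mean log2 ratios are given without a pseudocount, an alternative chosen after seeing the data, since each member was above 0 in every LEC library and such ratios do not depend on how libraries are scaled. The planned test used TPM + 1, which weighs on *Ccl9* and *Ccl20*, and its value follows. No pair passed after Benjamini-Hochberg adjustment, with adjusted p from 0.2 to 0.9 without a pseudocount and of 0.3 with it.

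*Ccl7* was at 20.5%, 22.3%, and 17.8% of *Ccl2* in LEC control and at 91.8%, 37.7%, and 19.3% in LEC-sorted. The groups overlapped, with a difference of 1.01 (exact p = 0.3) both without a pseudocount and with TPM + 1. With TPM + 1 it was 0.42 without LEC-sorted replicate 1 and 1.54 without replicate 3. *Ccl9* was at 0.237%, 0.146%, and 0.169% of *Ccl2* in the controls and at 0.181%, 0.147%, and 0.175% in the sorted libraries. These groups overlapped as well, with a difference of -0.11 (exact p = 0.9) against -0.35 with TPM + 1 (exact p = 0.3).

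*Ccl20* was at 0.0978%, 0.205%, and 0.0200% of *Ccl2* in LEC control and at 0.896%, 1.56%, and 0.347% in LEC-sorted, with no overlap. The difference was 3.41 (exact p = 0.1) and 2.44 with TPM + 1 (exact p = 0.1). Relative to *Ccl9* it was at 0.412, 1.40, and 0.118 times in the controls and 4.95, 10.6, and 1.98 times in the sorted libraries. This was also without overlap, with a difference of 3.52 (exact p = 0.1) and 2.79 with TPM + 1 (exact p = 0.1). Relative to *Ccl7* it was at 0.477%, 0.920%, and 0.112% in LEC control and at 0.976%, 4.14%, and 1.80% in LEC-sorted. Those ratios did not overlap and differed by 2.40 (exact p = 0.1), whereas with TPM + 1 the groups overlapped and the difference was 1.43 (exact p = 0.2). *Ccl9* relative to *Ccl7* overlapped between the groups, with a difference of -1.12 (exact p = 0.2) and -1.36 with TPM + 1 (exact p = 0.2). These tests cannot reach 0.05, and they do not show that any pair moved alike.

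**Figure D3:**
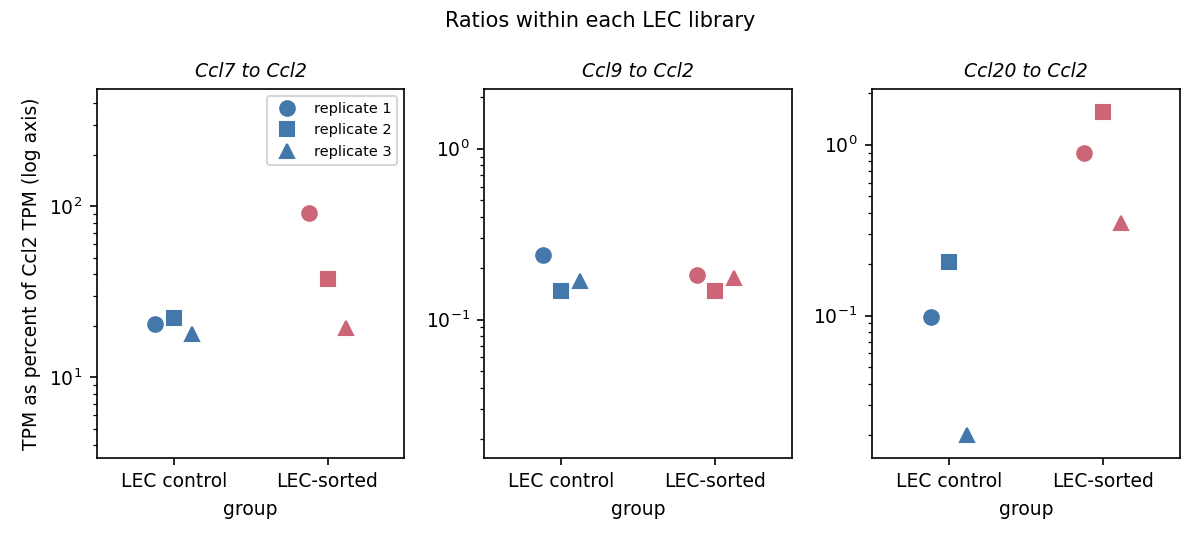
Level of *Ccl7*, *Ccl9*, and *Ccl20* as a percent of the *Ccl2* level (both in TPM) within each LEC library, on log axes, with 1 point per library (n = 3 per group). The *Ccl20* panel separates the groups, the *Ccl9* panel does not, and *Ccl7* runs from 19.3% to 91.8% of *Ccl2* in LEC-sorted.

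The sorted libraries did not keep one order across the members. *Ccl2* and *Ccl9* were highest in LEC-sorted replicate 2 and lowest in replicate 1, an order held by 53 of the 191 listed genes. *Ccl7* was highest in replicate 1 and lowest in replicate 3, as were 28 listed genes, and *Ccl20* was highest in replicate 2 and lowest in replicate 3, as were 44. *Krt8*, at 0.19, 2.19, and 0.89 TPM, had the order of *Ccl2* and *Ccl9*. In LEC control, replicate 2 was highest for all 4 members.

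Over the 6 LEC libraries, the Pearson correlation of log2(TPM + 1) between members ran from 0.88 to 0.96. The points share the difference between the groups, which by itself gives a high correlation to any pair of genes that rose, so the correlation of the deviations from the group means is given beside it. For *Ccl9* it was 0.80 with *Ccl20*, 0.70 with *Ccl2*, and 0.10 with *Ccl7*. *Ccl2* and *Ccl7*, neighbours on chromosome 11, had 0.30.

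The listed genes with the most similar pattern to each member were found by the highest correlation over the 6 libraries, among 190 other genes. For *Ccl2* these were *Gpr84*, a receptor for medium-chain fatty acids (r = 0.996, and 0.97 for the deviations), *H6pd*, a hexose-6-phosphate dehydrogenase of the endoplasmic reticulum (0.995 and 0.96), and the small GTPase gene *Rab32* (0.988 and 0.89). For *Ccl7* they were *Zc3h12a*, which encodes an RNase that degrades inflammatory transcripts (0.973 and 0.92), and the cytokine genes *Lif* (0.972 and 0.88) and *Il23a* (0.972 and 0.91). *Zc3h12a* itself averaged 4.85 TPM in LEC control and 18.8 TPM in LEC-sorted. For *Ccl9* they were the interleukin-13 decoy receptor gene *Il13ra2* (0.997 and 0.90), the lipocalin gene *Lcn2* (0.991 and 0.56), and the metalloreductase gene *Steap4* (0.987 and 0.90). For *Ccl20* they were the anion transporter gene *Slco3a1* (0.989 and 0.98), the acute-phase gene *Saa3* (0.978 and 0.88), and *Csf2*, which encodes GM-CSF (0.975 and 0.93). No gene stood among the 3 most similar of more than 1 member. By the deviations alone, *Rab32* stood at place 11 for *Ccl2*, and *Il13ra2*, *Lcn2*, and *Steap4* at places 12, 61, and 13 for *Ccl9*. The others stood at place 6 or better. *Il23a*, *Il13ra2*, *Steap4*, *Saa3*, and *Csf2* were near the floor in LEC control, with means of 0.24, 0.48, 0.22, 0.23, and 0.57 TPM. Both correlations come from the same 6 libraries, so the choice of genes by the first also favours a high value and place by the second. None of these correlations was tested.

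Of 24 CC chemokine ligands looked for, the members are the 4 that are listed, and the other 20 are not analysed here. Of 17 other chemokine ligands, 5 are listed and all 5 rose, as did 127 of all 191 listed genes. Their median log2 fold change was 4.49, against 2.05 over the members and 0.87 over all 191 listed genes. They include *Cxcl1* and *Cxcl5*, ligands of CXCR2 that draw neutrophils. *Cxcl1* went from 14.1 ± 4.55 to 1192 ± 589 TPM (SD, n = 3), and the fitted log2(TPM + 1) change was 6.21 (limma adjusted p = 6.74e-05), and *Cxcl5* from 2.98 ± 2.99 to 178 ± 101 TPM (5.58, adjusted p = 0.000543). *Cxcl2* and *Cxcl3* had log2 fold changes of 4.49 and 4.39, and *Pf4*, the gene of platelet factor 4, had 2.07. In LEC-sorted the mean of *Ccl2* was still above that of *Cxcl1*, with every *Ccl2* library above every *Cxcl1* library. None of 23 chemokine receptors is listed for LECs.

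NF-κB is the transcription factor family that acts downstream of interleukin-1 and TNF receptors and for which *Ccl2* and *Ccl20* are known target genes. Of 31 genes of this pathway, 6 are listed and all 6 rose, with log2 fold changes from 0.79 to 2.06 and a median of 1.26. After median scaling 3 of the 6 passed. Of all 191 listed genes, 127 rose, with a median of 1.11 among those. After median scaling 110 of the 191 passed, 46 of them higher. The inhibitor gene *Nfkbia* had 1.30 and *Nfkbiz* had 2.06, and NF-κB itself induces both genes. *Bcl3*, which encodes a nuclear cofactor of NF-κB, went from 4.75 to 21.1 TPM (2.01, limma adjusted p = 0.0046). The subunit genes *Nfkb1* and *Nfkb2* had 1.02 and 0.79, and the kinase gene *Ikbke* had 1.22. After scaling, *Nfkb1* had 0.40 and *Nfkb2* 0.17, with adjusted p of 0.0598 and 0.494 in limma.

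Of 26 upstream cytokines and their receptors, *Il1r1*, the receptor for interleukin-1, is listed for LECs. It went from 37.2 ± 12.1 to 81.2 ± 5.95 TPM (SD, n = 3), and the fitted log2(TPM + 1) change was 1.15 (limma adjusted p = 0.00566), which became 0.53 after median scaling and no longer passed. Of 15 proteoglycans and enzymes that build the glycosaminoglycans on which chemokines are held, *Sdc4*, the gene of syndecan-4, is listed. It went from 21.3 ± 3.21 to 46.5 ± 4.09 TPM (SD, n = 3), and the fitted log2(TPM + 1) change was 1.10 (limma adjusted p = 0.00299), and was 0.49 after median scaling, where it no longer passed. The members, the other chemokines, and the genes of these lists were chosen with these libraries known, and their counts do not set them apart from the other listed genes.

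**Figure D4:**
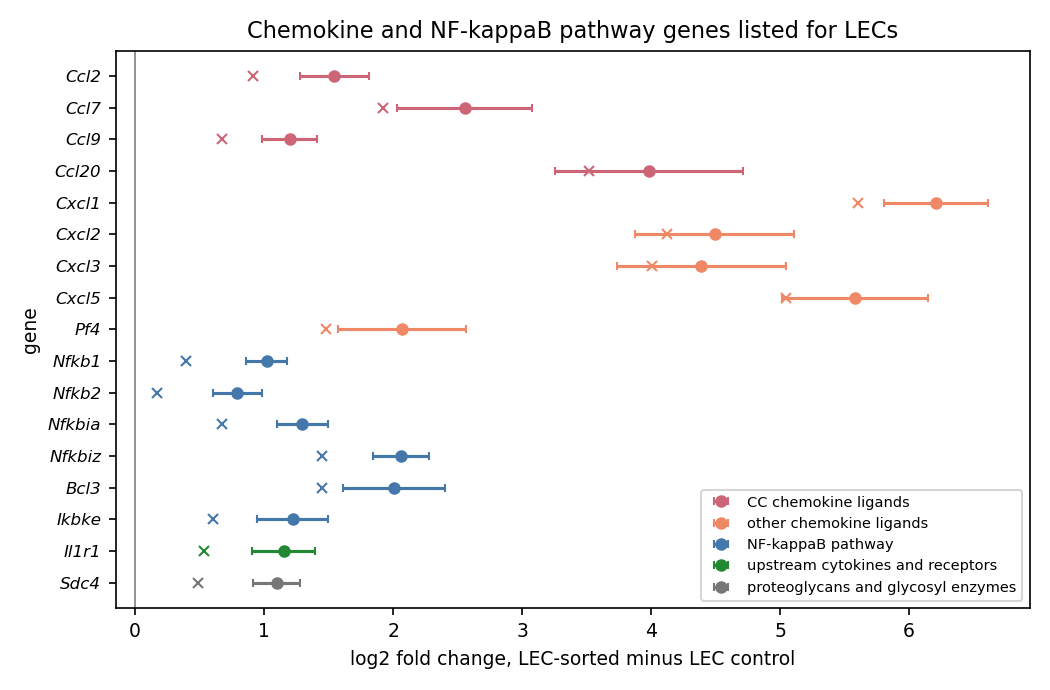
Log2 fold change of LEC-sorted over LEC control on the log2(TPM + 1) scale for the 4 members and the listed genes of the chemokine, NF-κB, upstream, and display lists (dots, with the SE), with crosses for the value after median scaling. *Cxcl1* lies furthest out at 6.21, *Ccl20* leads the members at 3.99, and each dot lies above 0.

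The neighbours on the chromosome were not all listed. Around *Ccl2* and *Ccl7*, 2 of 7 protein-coding genes are listed, and these are the members themselves, while *Ccl11*, *Ccl12*, *Ccl8*, and *Ccl1* are not. Around *Ccl9*, 2 of 8 are listed, *Ccl9* and *Wfdc17*, and *Ccl5*, *Ccl6*, *Ccl3*, and *Ccl4* are not. Around *Ccl20* it is 1 of 4. A gene that is not listed was not analysed here, and nothing is said of its level.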

How the data were processed

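Reads of 11 libraries were filtered with SOAPnuke and aligned to GRCm38.p6 with HISAT2 (version 2.0.4 per the submitters' processing notes), and the authors used DESeq2 for their own comparisons. For 191 LEC and 290 HaCa4 genes, the authors deposited TPM with 2 decimals in each library, and replicates were kept apart. The tool that gave TPM is not given in the sources used here, and the depth is unknown.

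The 3 LEC control and 3 LEC-sorted libraries were compared with limma 3.58.1 in R 4.3.3 (mean-variance trend, two-sided, no replicate block) on log2(TPM + 1), which understates the change of low genes, and p-values were adjusted over all 191 genes. The step was tested on simulated data in which genes were not selected on the contrast and rises and falls were equally likely. That test does not bear on the effect of the selection. A count test was not used, since TPM are not counts. Nothing says that replicates came from separate cultures, so p-values measure only the spread between these libraries, which may be technical.

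The members and gene lists were chosen with earlier results of these data known. The text names the members, the listed genes of those lists, and the 3 genes most correlated with each member. *Wfdc17* was named after its values were seen. The settings varied were the pseudocount (0.1 or 5), a minimum mean of 1 or 10 TPM, median scaling, no trend, a replicate block, a log2 threshold of 1, and each library left out. Ratios without a pseudocount were added after seeing the data. Motifs, positions, and shared runs came from RefSeq and GENCODE M21 tables, read with Python 3.11.15.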

Additional observations from a re-analysis of the deposited data

How the results depend on the processing

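The 4 members kept their direction and stayed past both thresholds under all 55 alternatives that gave them a value, with log2 fold changes from 0.92 to 1.73 for *Ccl2*, 1.93 to 3.15 for *Ccl7*, 0.68 to 1.41 for *Ccl9*, and 2.74 to 4.80 for *Ccl20*, and limma adjusted p of at most 0.0133, 0.019, 0.0174, and 0.0128. All these alternatives drew on the same selected genes and libraries. *Ccl9* was not tested with the filter at a mean of 10 TPM, which it does not reach. The 6 log2 ratios kept their direction under their 54 alternatives, but those with *Ccl9* or *Ccl20* depended on the pseudocount. With a pseudocount of 5, *Ccl20* to *Ccl7* differed by 0.20 (exact p = 0.7) and *Ccl20* to *Ccl2* by 1.20 (exact p = 0.2), and with 0.1 they differed by 2.24 and 3.25 (exact p = 0.1 each). *Ccl9* to *Ccl2* ranged from -0.81 to -0.11. Of the 191 listed genes, 184 passed both thresholds, against 110 after median scaling (46 higher and 64 lower, so that the higher genes were 41.8% of the calls instead of 66.3%) and 95 at a log2 threshold of 1. That median is taken over listed genes, most of which were higher. Leaving out 1 library at a time gave between 165 and 177 genes. With a replicate block, 182 genes passed. With the block the SE fell from 0.27 to 0.16 for *Ccl2*, from 0.52 to 0.35 for *Ccl7*, and from 0.73 to 0.26 for *Ccl20*. For *Ccl9* it rose from 0.21 to 0.28. Deviations from the group means of libraries with the same number had correlations of 0.23, 0.07, and -0.02. Libraries with different numbers had between -0.18 and 0.15. Whether libraries with the same number were prepared together is not given in the sources used here, and these values cannot settle it. The unknown depth limits *Ccl9* and *Ccl20* in LEC control most, where their levels were under 5 TPM and the number of reads behind them is not known.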

Other observations

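*Wfdc17*, which encodes a small protein with a WAP domain and is annotated near *Ccl9* on chromosome 11, was at 0.37, 0.41, and 1.04 TPM in LEC control and at 0.58, 37.57, and 26.64 TPM in LEC-sorted replicates 1 to 3. The groups overlapped, since LEC-sorted replicate 1 lay within the control range. The log2 fold change was 2.91 (SE 1.11, limma adjusted p = 0.0338) and 2.52 after median scaling, where it no longer passed (adjusted p = 0.0714).

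The NF-κB consensus was in at least 1 promoter window of 25 of the 97 genes listed as higher in LEC-sorted that have a window (25.8%), of 11 of the 50 listed as lower (22.0%), and of 2581 of all 27025 genes with a window (9.55%). These are counts of letters, with no test, and the other motifs were not counted over the listed genes.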
